A study of Mus musculus with 12 samples.

Results

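Lipid droplets are organelles in which cells keep triglyceride under a protein coat, and lipolysis is the stepwise release of fatty acids from that store. Coat proteins of the perilipin family and the droplet protein Cidec shelter and enlarge the droplet in fat cells. The lipases Pnpla2, Lipe and Mgll remove the fatty acids of a triglyceride in turn, and hormones that raise cyclic AMP speed the process while insulin slows it. The 10 genes described here were the coat and droplet genes Plin1, Plin2, Plin4, Cidec and Adig, the lipases Pnpla2, Lipe and Mgll, and Plaat3 and Abhd15, which encode fat-cell proteins that restrain lipolysis. They were found by their gene symbol in the deposited signal table, in which Plaat3 carries its older name Pla2g16. Of the 10 genes, 9 were found, on 15 of the 45037 probe sets that are not controls. Plin1 was not analysed here, because no probe set carries it as its single symbol.

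The signals come from 12 Affymetrix arrays of RNA from mouse 3T3-L1 preadipocytes and 10T1/2 mesenchymal stem cells, both of them cell lines that can become fat cells in culture. Each culture received a negative control siRNA (si-Ctr) or an siRNA labelled si-Setdb1, si-Mbd1 or si-Mcaf1, 5 days before the differentiation medium and again when it was added. Setdb1 encodes a histone H3 lysine 9 methyltransferase, Mbd1 a protein that binds methylated DNA, and Mcaf1 (Atf7ip) a partner of both. Cells were taken before (0 hr) or after differentiation medium with 0.25 µM dexamethasone, a glucocorticoid, for 36 hr in 3T3-L1 and 48 hr in 10T1/2. The si-Ctr and si-Setdb1 siRNAs were each used at 0 hr in experiments A and B of 3T3-L1, at 36 hr in experiment A of that line, and in 10T1/2 at 0 hr and 48 hr, which gives 5 pairs of arrays. The si-Mbd1 and si-Mcaf1 siRNAs have 1 array each, in 3T3-L1 in experiment B, where the title says 0 hr and another label 36 hr with dexamethasone. The titles were followed. Each target was hit with a single siRNA, so a response cannot be told apart from an effect of that siRNA sequence alone.

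The 4 arrays of experiment B had a higher median signal (14.9 to 18.1 against 11.2 to 12.2) and a lower Gapdh 3'/5' ratio (0.691 to 0.747 against 0.859 to 0.933) than the other 8. As a check of the siRNAs, the brightest Setdb1 probe set read 143 to 209 under si-Setdb1 and 121 to 180 under si-Ctr, and Atf7ip read 155 under si-Mcaf1 and 160 under si-Ctr in the same experiment. The Atf7ip difference was -0.03 (log2, normalised) and Setdb1 was lower in 1 of 5 pairs, each on its brightest probe set. Those readings go against the labels, so these are called the arrays labelled si-Setdb1 and si-Mcaf1. Other probe sets of these genes were not read here. In all 5 pairs Atf7ip had the higher signal under si-Setdb1, with log2 differences of 1.38 to 1.92 (399.5 against 159.6 in experiment B). For Setdb1 the signal was 270.9 under si-Mcaf1 beside 144.8 for its control. Mbd1 read 144 under si-Mbd1 and 306 under si-Ctr. The summed signal of 8 fat cell markers was 781 to 16501 on the arrays labelled si-Setdb1 and 179.5 to 3977 on the si-Ctr arrays. That of 6 fibroblast markers was 26940 to 32195 and 26927 to 33621, and those of the muscle, leukocyte, endothelial and epithelial lists were at most 149 on any array. That of 5 preadipocyte markers was 2136 to 9933 with si-Setdb1 and 4064 to 9093 with si-Ctr, and was lower with si-Setdb1 in 10T1/2 at 48 hr (2136 against 4131), where Ly6a read 842 against 2343 and Pdgfra 1033 against 1679. Its members Dlk1 and Zfp423 went the other way, at 45 against 25.5 and 214.7 against 83 there, and were higher with si-Setdb1 in 5 of 5 pairs. That of 6 bone and cartilage markers was lower with si-Setdb1 in 10T1/2 at both times, at 2157 against 4312 (0 hr) and 999 against 3466 (48 hr), and in 3T3-L1 it was 648 against 675 (0 hr, A), 779.7 against 680.7 (0 hr, B) and 332 against 459 (36 hr). In 10T1/2 its member Col2a1 read 852.4 against 2796.9 (0 hr) and 274.5 against 2203.1 (48 hr), and Sox9 and Acan were also lower at both times. Runx2 read 439.6 against 441.6 (0 hr) and 274.2 against 313.1 (48 hr). At 0 hr Sp7 and Ibsp went the other way, at 10.4 against 4.7 and 7.5 against 4.8. The part of these lists in the results below was not tested. These are bulk cultures, in which more RNA per cell and more cells of a type cannot be told apart.

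Promoter sequences are shown for the 2 genes that rose on the arrays labelled si-Setdb1 (Plaat3 and Abhd15), the one that rose after dexamethasone (Plin4) and Adig, one of 4 members with a match to the motif of the fat cell regulator PPARγ. RefSeq's table for GRCm38.p6 held all 10 genes. Each window runs 5′ to 3′ from 250 bases before the start site, so that base 251 is the start, and capitals mark motif matches.
Plaat3, chr19:7557209-7557508, plus strand: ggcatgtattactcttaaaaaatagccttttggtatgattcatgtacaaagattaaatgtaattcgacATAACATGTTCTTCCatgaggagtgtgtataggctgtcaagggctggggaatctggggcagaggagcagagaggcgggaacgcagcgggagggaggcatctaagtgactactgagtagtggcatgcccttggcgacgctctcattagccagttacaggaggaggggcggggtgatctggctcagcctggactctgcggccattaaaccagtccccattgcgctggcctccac
Abhd15, chr11:77514867-77515166, plus strand: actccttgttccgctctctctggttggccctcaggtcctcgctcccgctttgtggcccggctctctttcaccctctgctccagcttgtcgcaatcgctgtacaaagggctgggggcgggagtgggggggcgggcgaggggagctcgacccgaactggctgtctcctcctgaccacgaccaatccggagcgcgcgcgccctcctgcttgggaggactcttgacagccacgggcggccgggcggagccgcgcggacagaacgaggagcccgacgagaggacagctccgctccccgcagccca
Plin4, chr17:56109733-56110032, minus strand: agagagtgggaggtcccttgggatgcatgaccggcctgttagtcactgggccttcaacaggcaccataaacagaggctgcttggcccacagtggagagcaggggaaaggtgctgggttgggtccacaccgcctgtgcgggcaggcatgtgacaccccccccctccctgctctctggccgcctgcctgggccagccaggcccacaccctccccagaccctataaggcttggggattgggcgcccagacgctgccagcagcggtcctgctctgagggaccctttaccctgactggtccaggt
Adig, chr2:158502362-158502661, plus strand: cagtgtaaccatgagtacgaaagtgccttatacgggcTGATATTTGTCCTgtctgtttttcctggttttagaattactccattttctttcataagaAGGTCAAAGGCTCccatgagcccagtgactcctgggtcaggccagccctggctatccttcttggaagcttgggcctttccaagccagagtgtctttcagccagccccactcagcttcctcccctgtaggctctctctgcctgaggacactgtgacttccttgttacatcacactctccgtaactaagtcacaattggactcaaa

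Each window was searched on both strands for the PPAR direct repeat AGGTCANAGGTCA with up to 3 mismatches, the glucocorticoid receptor motif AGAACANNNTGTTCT with up to 3 mismatches, and the C/EBP motif TTGCNNAA without mismatch. Of 32534 promoters in the table, 24.7%, 14.4% and 10.8% hold them. In the Adig window the direct repeat matched at bases 97 to 109 (AGGTCAAAGGCTC) and, on the other strand, at bases 38 to 50, each with 3 mismatches. Plin2 had a closer match (2 mismatches), and Cidec and a second start site of Lipe had matches with 3. The Plaat3 window held a match to the glucocorticoid motif at bases 69 to 83, with 3 mismatches. The second start site of Lipe also had one with 3. C/EBP matches were found in Plin1 and at a second start site of Cidec. The Abhd15 and Plin4 windows held none of the 3 motifs. The windows also differed in CpG content, since Abhd15 had 29 CpG dinucleotides, Plaat3 9, Plin4 7 and Adig 3, against a median of 7 and quartiles of 3 and 20 over all promoters. The matches describe letters in these windows, and no binding was measured.

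Plaat3, the phospholipase A2 of fat cells, and Abhd15, which keeps up the phosphodiesterase through which insulin slows lipolysis, were the clearest of the group. Both were higher on the arrays labelled si-Setdb1 than on si-Ctr in every pair, and both passed the test over all genes. Plin2, the coat protein of droplets in most cell types, and Adig were also higher in 5 of 5 pairs but missed the threshold, where 11% of all genes tested were higher in 5 of 5, and Plin4 was not higher overall. All differences below are log2 differences of quantile-normalised signal, and a gene passed when its adjusted p in limma was under 0.05. In this comparison of 5 pairs 136 of 12402 genes passed (1.1%), and 55 of them were higher (0.443%). Of the 7 genes of this group that were tested, 2 rose and none fell. The median difference over the 9 measured genes was 1.05, and 7 were above 0, beside a median of 0.00 and 50.3% above 0 over all genes tested. The 9 include Cidec and Lipe, which were too dim to be tested.

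**Figure D1:**
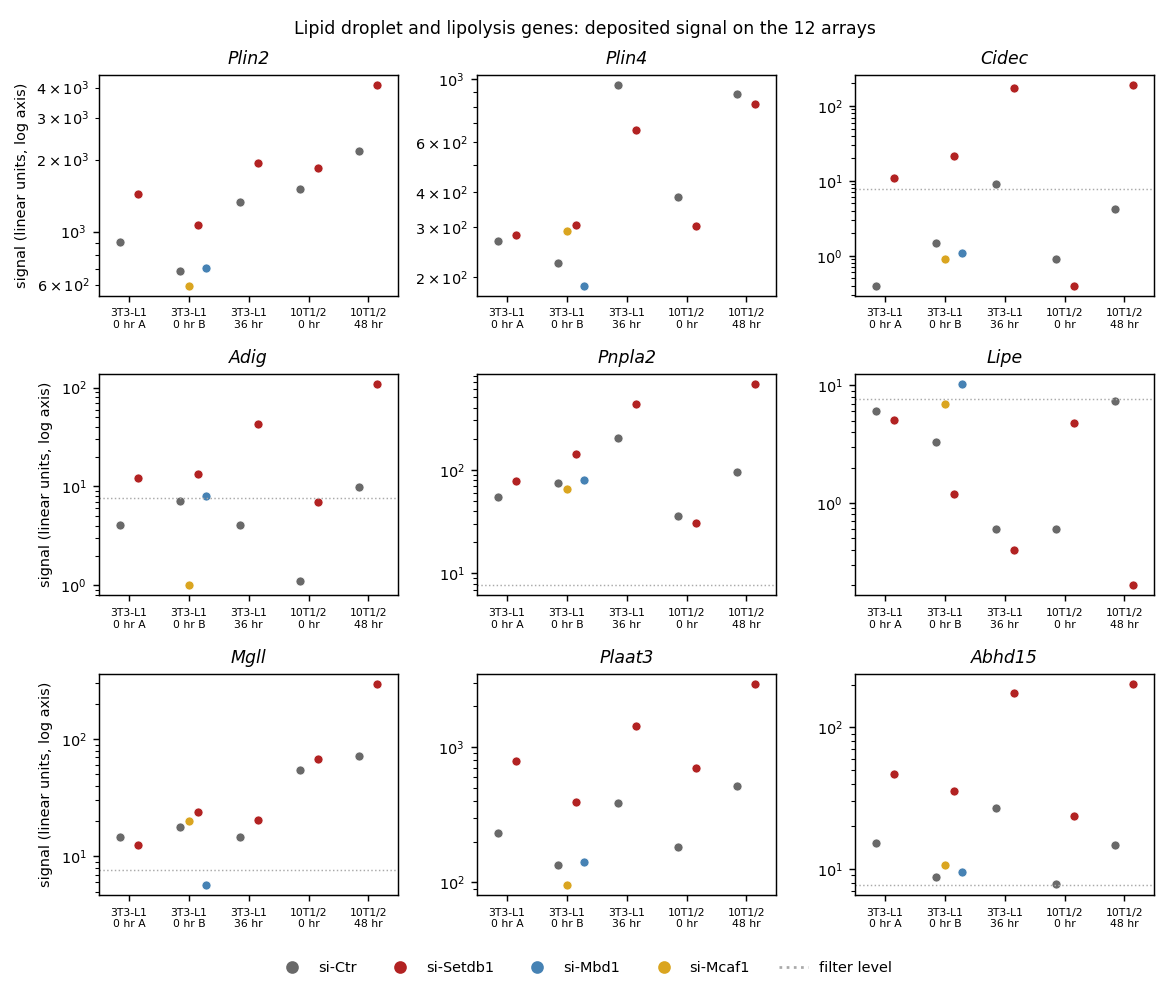
Deposited signal (linear units, log axis) of the probe set read for each of the 9 genes on the 12 arrays, by pair and siRNA, with 1 point per array and a dotted line at the filter level of 7.69 where the signal comes near it. Plaat3 and Abhd15 show the si-Setdb1 point above the si-Ctr point in all 5 pairs, Cidec and Lipe lie mostly near or under the line, and Mgll is higher in 10T1/2 than in 3T3-L1.

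Here and below, a pair of signals gives si-Ctr first. Plaat3 signals in 3T3-L1 were 234 and 793 (0 hr, A), 135 and 392 (0 hr, B) and 389 and 1431 (36 hr), and in 10T1/2 they were 183 and 697 (0 hr) and 518 and 2935 (48 hr). Each si-Setdb1 array was well above its own control, while the lowest of the 5 (392, experiment B) lay below the highest control (518, 10T1/2 at 48 hr). The pair differences lay between 1.67 and 2.33, and their mean was 1.89 ± 0.12 (SE, n = 5 pairs; adjusted p = 0.0167, limma). A second Plaat3 probe set gave 118 to 359 with si-Ctr and 324 to 2351 with si-Setdb1, a mean difference of 1.79, and was also higher in 5 of 5 pairs.

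Abhd15 signals in 3T3-L1 were 15.2 and 46.9 (0 hr, A), 8.7 and 35.5 (0 hr, B) and 26.8 and 173.9 (36 hr), and in 10T1/2 7.8 and 23.5 (0 hr) and 14.8 and 202.8 (48 hr). The controls lay near the bottom of the tested range, and the 2 highest arrays were the si-Setdb1 arrays after dexamethasone. The mean difference was 2.21 ± 0.33 (SE, n = 5 pairs; adjusted p = 0.0475, limma), from 1.42 in 10T1/2 at 0 hr to 3.58 at 48 hr. A second, dim Abhd15 probe set (3.3 to 17.9) did not follow it, being higher in 1 of 5 pairs with a mean difference of -0.35.

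Both calls rest on all 5 pairs. Without any 1 pair no gene of the table passed, and the Plaat3 difference was then 1.77 to 1.94 (adjusted p = 0.0536 to 0.121) and that of Abhd15 1.86 to 2.40 (adjusted p = 0.0845 to 0.140). Without the filter on dim genes neither passed (adjusted p = 0.139 and 0.185), and with the probe sets of a gene averaged the Abhd15 difference fell to 0.93 (adjusted p = 0.0980) and the Plaat3 difference was 1.84 (adjusted p = 0.0521). Abhd15 did not pass without the pair block (adjusted p = 0.0523) or with each probe set as a feature (0.0913), where Plaat3 did (0.0303).

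Plin2 signals in 3T3-L1 were 900.3 and 1441 (0 hr, A), 686 and 1070.4 (0 hr, B) and 1335 and 1944 (36 hr), and in 10T1/2 1513 and 1836 (0 hr) and 2177 and 4120.3 (48 hr). It was bright on every array, and its highest pair was 10T1/2 at 48 hr. The mean difference of 0.60 ± 0.11 (SE, n = 5 pairs) did not pass (adjusted p = 0.0660, limma). It passed with a pseudocount of 5 (adjusted p = 0.0480) or 16 (0.0241), with the stricter filter on dim genes (0.0157) and with a trend in the variance model (0.00984), at differences of 0.59 to 0.60.

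Adig, a small membrane protein of fat cells, gave signals in 3T3-L1 of 4.1 and 12.2 (0 hr, A), 7.1 and 13.4 (0 hr, B) and 4.1 and 42.6 (36 hr), and in 10T1/2 of 1.1 and 6.9 (0 hr) and 9.8 and 108.3 (48 hr). The 2 arrays labelled si-Setdb1 after dexamethasone stood above all others, and the remaining arrays lay near or under the filter level, so Adig entered the test through its high arrays. Its difference of 2.07 ± 0.42 (SE, n = 5 pairs) did not pass (adjusted p = 0.0732, limma). With a pseudocount of 16 the Adig difference between siRNAs was 1.01, against 2.07. Its difference from before to after dexamethasone, in 4 pairs, was 1.03 with that pseudocount, against 1.92.

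Cidec, which enlarges droplets by passing lipid from one to another, lay under the filter level on average and was not tested. Its signals in 3T3-L1 were 0.4 and 10.8 (0 hr, A), 1.5 and 21.4 (0 hr, B) and 9 and 174.5 (36 hr), and in 10T1/2 0.9 and 0.4 (0 hr) and 4.2 and 192.9 (48 hr). The arrays labelled si-Setdb1 were higher in 4 of 5 pairs, and 10T1/2 at 0 hr was dim on both arrays. Its mean pair difference of 3.02 (SD 2.20, n = 5) starts from control signals of 0.4 to 9, near the 0.8 added before taking logs. Plin4, which coats droplets in fat cells, was higher in 2 of 5 pairs, with a difference of -0.07 ± 0.16 (SE, n = 5 pairs; adjusted p = 0.816, limma) and with signals of 225 to 959 in si-Ctr and 281 to 819 in si-Setdb1.

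Among the lipases, Pnpla2, which takes the first fatty acid off a triglyceride, gave signals in 3T3-L1 of 54.2 and 78.7 (0 hr, A), 74.3 and 141.5 (0 hr, B) and 202 and 433 (36 hr), and in 10T1/2 of 35.5 and 30.6 (0 hr) and 94.8 and 671 (48 hr). It was higher in 4 of 5 pairs, with the widest gap in 10T1/2 at 48 hr and the reverse order in 10T1/2 at 0 hr. The difference of 1.05 ± 0.38 (SE, n = 5 pairs) did not pass (adjusted p = 0.180, limma). It was 0.64 without the 10T1/2 pair at 48 hr and 0.67 with the probe sets averaged. Mgll, which cleaves the last fatty acid, gave 14.5 and 12.6, 17.9 and 24, and 14.5 and 20.5 in the 3T3-L1 pairs in that order, then 54.9 and 67.2 and 71.3 and 295.6 in the 10T1/2 pairs. The last pair stood apart from the other four, and the difference of 0.57 ± 0.30 (SE, n = 5 pairs) did not pass (adjusted p = 0.312, limma). Without that pair the Mgll difference was 0.23, and with its probe sets averaged it was 0.19.

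Lipe, the hormone-sensitive lipase, could not be followed well. Its single-symbol probe set lay between 0.2 and 10.2 on all 12 arrays, was not tested, and was higher in 1 of 5 pairs (mean difference -0.55). A second probe set annotated to both Lipe and LOC101055998 gave 16.9 and 40.4 (0 hr, A), 36.9 and 79.5 (0 hr, B) and 26.6 and 106.2 (36 hr) in 3T3-L1, then 17.8 and 19.8 (0 hr) and 23.4 and 156.7 (48 hr) in 10T1/2. It belongs to no single gene here. In the fit on all probe sets its difference was 1.41 ± 0.34 (SE, n = 5 pairs; adjusted p = 0.149, limma).

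**Figure D2:**
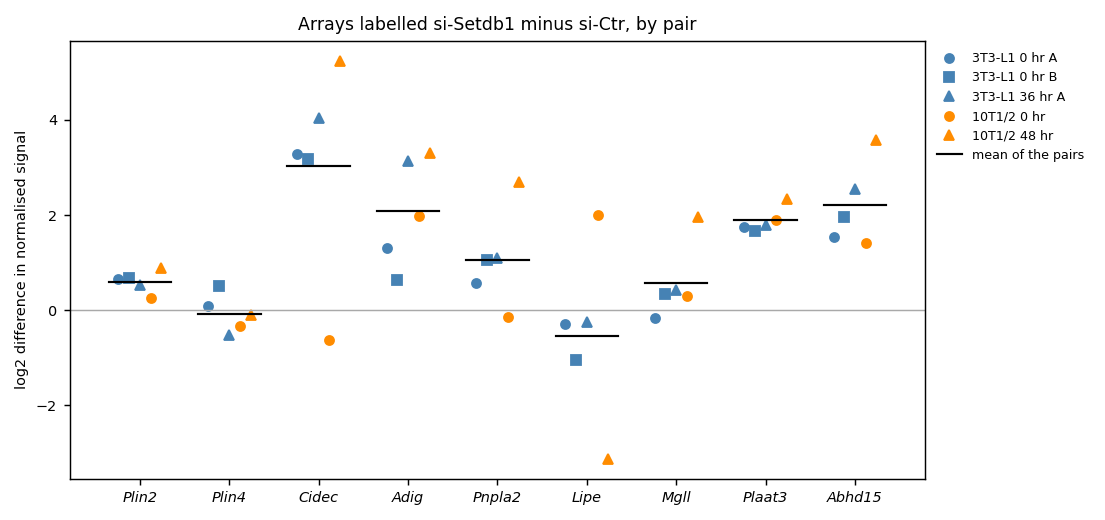
Log2 difference of quantile-normalised signal, si-Setdb1 minus si-Ctr, for the 9 genes in the 5 pairs, with 1 point per pair (blue for 3T3-L1, orange for 10T1/2, triangles after dexamethasone) and a bar at the mean. Plaat3 keeps its 5 points between 1.67 and 2.33, while Cidec, Pnpla2 and Mgll each have a point under 0 and their highest point in 10T1/2 at 48 hr.

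The 5 pairs also allowed a test of whether the difference between siRNAs changed with line or with dexamethasone. No gene passed either test (0 of 12402, 0%, limma), with 1030 and 888 genes at an unadjusted p under 0.05, so no member can be said to differ. Among the 7 tested genes the lowest adjusted p was 0.701 by line and 0.635 by time. The difference between siRNAs was 1.63 ± 0.23 at 0 hr and 3.06 ± 0.28 after dexamethasone for Abhd15 (log2, SE, 3 and 2 pairs). For Pnpla2 it was 0.49 ± 0.38 and 1.90 ± 0.46, for Plaat3 1.77 ± 0.14 and 2.06 ± 0.17, and for Plin2 0.52 ± 0.14 and 0.70 ± 0.17. Adig gave 1.31 ± 0.26 and 3.22 ± 0.32. It entered the test through its 2 high arrays, those labelled si-Setdb1 after dexamethasone, so no change with dexamethasone is read for it. By line, Plaat3 differed by 1.73 ± 0.13 in 3T3-L1 and 2.11 ± 0.15 in 10T1/2, and Mgll by 0.20 ± 0.33 and 1.13 ± 0.40. The Mgll value in 10T1/2 is the mean of 0.31 at 0 hr and 1.95 at 48 hr, and the difference between the lines of 0.93 ranged from 0.11 to 1.75 when 1 pair was left out. Without the 10T1/2 pair at 48 hr, the difference between times was 0.60 for Pnpla2 and 0.91 for Abhd15, against 1.41 and 1.43 with it. In 3T3-L1 at 0 hr alone, the one condition with 2 arrays a group, 2 genes of the table passed (0.0161%) and none of the members did. Plaat3 differed there by 1.70 ± 0.46 (adjusted p = 0.817, limma, n = 2 a group), in a fit without a block. Its differences within experiments A and B were 1.74 and 1.67, and with the experiment as a block the adjusted p was 0.233 (limma).

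Dexamethasone and differentiation medium were followed in 4 pairs of arrays from before to after, 1 for each line and siRNA, and 95 genes of the table passed (0.766%), 62 of them higher (0.5%). Plin4 rose and was the one member to pass. It read 268 before and 959 after in 3T3-L1 with si-Ctr, 281 and 662 with si-Setdb1, 383 and 891 in 10T1/2 with si-Ctr, and 303 and 819 with si-Setdb1. All 4 arrays after dexamethasone lay above all 4 before, as for 3.34% of genes, and the 4 experiment B arrays, at 187 to 307, also lay below them. The difference was 1.40 ± 0.14 (SE, n = 4 pairs; adjusted p = 0.0372, limma), and it was 1.49 ± 0.21 with si-Ctr and 1.30 ± 0.21 with si-Setdb1. Leaving out any 1 pair gave 1.26 to 1.47 and no call (adjusted p = 0.0904 to 0.156). It did not pass without the filter on dim genes (adjusted p = 0.176), with probe sets of a gene averaged (0.0530) or with each probe set as its own feature (0.0728).

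The 6 other tested members were each higher after dexamethasone in at least 3 of 4 pairs without passing. Of the 2 untested members, Cidec was higher in 4 of 4 pairs and Lipe was lower in 3 of 4 (mean difference -1.25) on its single-symbol probe set. The probe set shared by Lipe and LOC101055998 went the other way, being higher after dexamethasone in 4 of 4 pairs, from 16.9 to 26.6 and 40.4 to 106.2 in 3T3-L1 (si-Ctr and si-Setdb1) and from 17.8 to 23.4 and 19.8 to 156.7 in 10T1/2. Its difference of 1.32 ± 0.43 (SE, n = 4 pairs) did not pass in the fit on all probe sets (adjusted p = 0.248, limma). The median difference over the 9 measured genes was 1.40, and 8 were above 0, beside 48.8% of all genes tested. Pnpla2 differed by 2.48 ± 0.48 (SE, n = 4 pairs; adjusted p = 0.104, limma), from 1.39 in 10T1/2 with si-Ctr to 4.25 with si-Setdb1. It passed with a pseudocount of 16 (adjusted p = 0.0415), a stricter filter (0.0310) or a variance trend (0.0242). Plaat3 differed by 1.23 ± 0.23 (adjusted p = 0.0942, limma) and passed under those settings too (0.0348, 0.0278 and 0.0202). For Plin2 the difference was 0.61 ± 0.15, for Abhd15 1.60 ± 0.40, for Adig 1.92 ± 0.61 and for Mgll 0.79 ± 0.35, with adjusted p of 0.136, 0.139, 0.186 and 0.278 (limma). Adig was lower after dexamethasone on the 3T3-L1 si-Ctr arrays, at 4.1 on both before normalisation (-0.12 after it). Of the 7 tested genes 6 were higher in 4 of 4 pairs, as were 16.3% of all genes tested. Cidec differed by 1.41 to 7.29, from signals of 0.4 to 10.8 before. Without the 10T1/2 si-Setdb1 pair the Mgll difference was 0.36, and with probe sets averaged those of Pnpla2 and Abhd15 were 1.62 and 0.95.

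Responses with si-Ctr and si-Setdb1 were then set side by side. Abhd15 differed by 0.81 ± 0.31 after dexamethasone with si-Ctr and 2.40 ± 0.31 with si-Setdb1, Pnpla2 by 1.64 ± 0.50 and 3.32 ± 0.50, and Mgll by 0.23 ± 0.39 and 1.35 ± 0.39 (log2, SE, 2 pairs each). The test of the difference between them gave no call in the table (0%, limma, with 614 genes at an unadjusted p under 0.05) and adjusted p of 0.913 for each of these 3 genes. Between the lines Plaat3 differed by 0.78 ± 0.16 in 3T3-L1 and 1.69 ± 0.16 in 10T1/2. Adig, which entered the test through its high arrays, differed by 0.79 ± 0.57 and 3.04 ± 0.57. No gene passed that test (0%, 1237 at an unadjusted p under 0.05), and the lowest adjusted p of a member was 0.353. The lines were also harvested at different times, 36 hr and 48 hr.

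**Figure D3:**
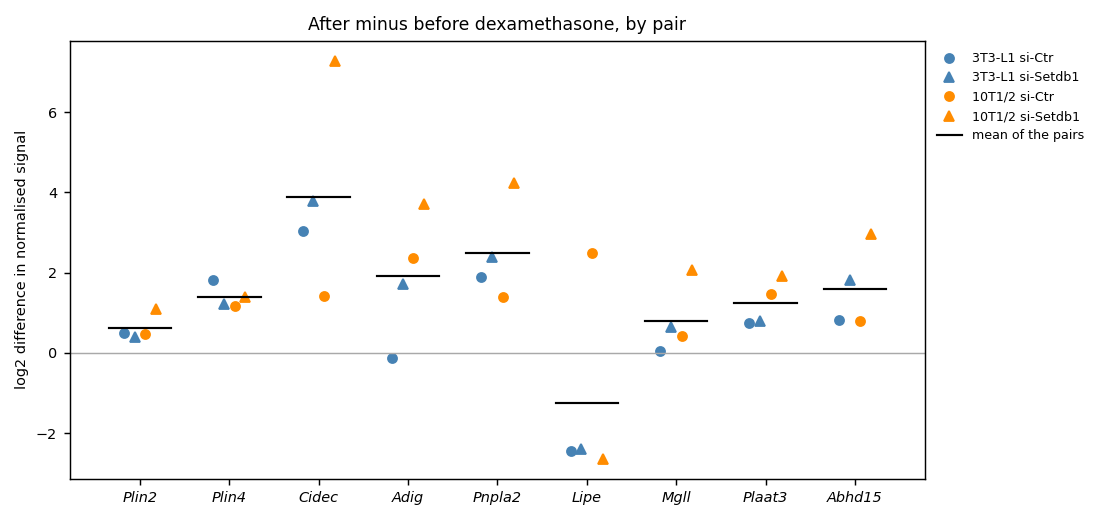
Log2 difference of quantile-normalised signal, after minus before dexamethasone, for the 9 genes in the 4 pairs, with 1 point per pair (circles si-Ctr, triangles si-Setdb1, blue 3T3-L1, orange 10T1/2) and a bar at the mean. Plin4 has its 4 points between 1.17 and 1.82, and the highest point of Pnpla2, Mgll, Adig, Cidec and Abhd15 is 10T1/2 with si-Setdb1.

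Before dexamethasone the lines differed widely, with 2184 genes of the table past the threshold (17.6%), 1129 of them higher in 10T1/2 (9.1%) and 1055 lower (8.51%). Mgll was higher in 10T1/2, at 54.9 and 67.2 against 12.6 to 24 on the 4 arrays of 3T3-L1, with no overlap. The difference was 1.97 ± 0.18 (SE, 2 and 4 arrays; adjusted p = 0.00309, limma), and it held without each of the 4 arrays of 3T3-L1 in turn (1.87 to 2.03). Averaging its probe sets gave 1.18 (adjusted p = 0.0556). Of the other Mgll probe sets, 2 were likewise higher in 10T1/2, reading 42.2 and 50.2 against 8.5 to 19.5, and 36.5 and 42.9 against 11.1 to 24. The remaining one lay at 0.3 to 12.4 over the 12 arrays. Being higher in 10T1/2 on every array at 0 hr is common, since 25.6% of genes showed it.

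No other member passed between the lines. Pnpla2 was at 35.5 and 30.6 in 10T1/2 and 54.2 to 141.5 in 3T3-L1, a difference of -1.13 ± 0.32 (adjusted p = 0.0655, limma) that was -0.72 with probe sets averaged. Plin2 was at 1513 and 1836 against 686 to 1441, a difference of 0.66 ± 0.20 (adjusted p = 0.0764, limma) that was 1.05 with array medians subtracted. Both pass with a pseudocount of 16, a stricter filter or a variance trend. Adig lay at 1.1 and 6.9 in 10T1/2 and 4.1 to 13.4 in 3T3-L1 on these arrays, near or under the filter level, so no difference is read for it. Differences for Plaat3 (0.20 ± 0.36), Abhd15 (-0.36 ± 0.39) and Plin4 (0.34 ± 0.21) did not pass either (adjusted p = 0.725, 0.556 and 0.299, limma).

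**Figure D4:**
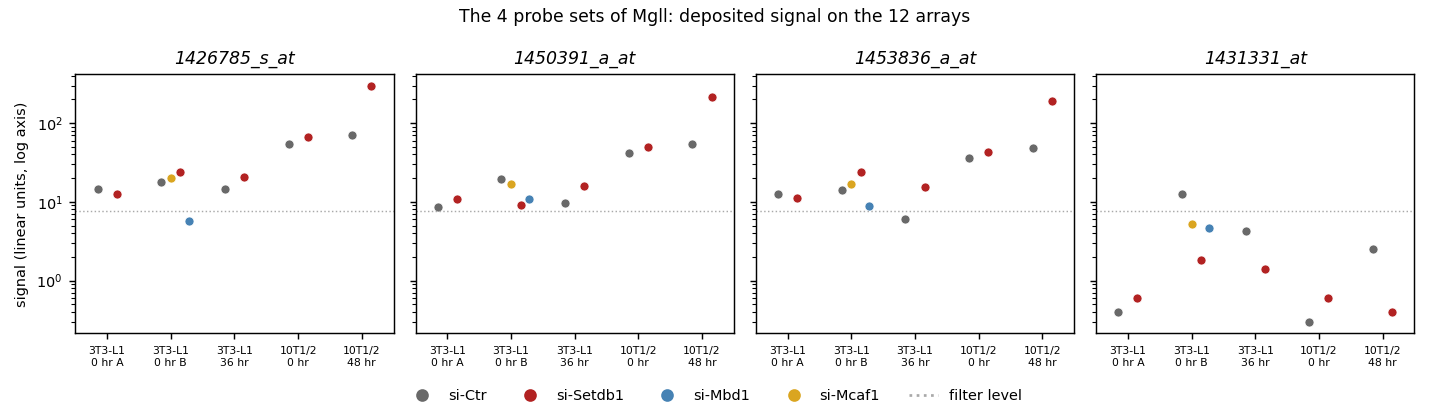
Deposited signal (linear units, log axis) of the 4 Mgll probe sets on the 12 arrays, with 1 point per array and a dotted line at the filter level of 7.69. In the first 3 panels the 10T1/2 points lie above the 3T3-L1 points and the 10T1/2 si-Setdb1 array at 48 hr is highest, and the fourth panel lies mostly under the line.

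Last, the lone arrays of the si-Mbd1 and si-Mcaf1 siRNAs can be set against the si-Ctr array of experiment B, taken at 0 hr. Since another label puts both arrays after dexamethasone, an effect of time and one of the siRNA cannot be told apart from the labels. Plin4, which rose after dexamethasone, read 187 (si-Mbd1) and 292 (si-Mcaf1), beside 225 with si-Ctr at 0 hr in experiment B and 959 at 36 hr. For Fabp4 the signals were 67.1 and 86.9, beside 41.5 and 1053. The time of these arrays was not tested. No gene of the table passed (0%, limma with the spread of the other 3T3-L1 arrays at 0 hr; 666 and 905 at an unadjusted p under 0.05). On the si-Mbd1 array Mgll read 5.7, under the filter level, against 17.9 with si-Ctr, a difference of -1.36. On that array 1.56% of genes were over 2-fold lower. The other Mgll probe sets read 10.9 against 19.5, 8.8 against 14.2 and 4.6 against 12.4. On the array labelled si-Mcaf1, Adig read 1 against 7.1 (-2.05), both under the filter level, and 1.68% of genes were over 2-fold lower. Plaat3 read 143 on the si-Mbd1 array, 95.7 on the array labelled si-Mcaf1 and 135 with si-Ctr, so neither array showed the level of the si-Setdb1 array of that experiment (392). Abhd15 likewise read 9.5 and 10.6 against 8.7, beside 35.5 with si-Setdb1. For Plin2 the signals were 706 and 594 against 686, and for Pnpla2 79.8 and 64.9 against 74.3.

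Other genes of the pathway were counted on 3 lists, of droplet coat and biogenesis genes (16 measured, 13 tested), regulators of lipolysis (26 and 18) and other lipid hydrolases (18 and 14). Over the 5 pairs, 1 of 13 coat genes rose and no gene of the other lists passed, where 1.1% of all genes passed and 0.443% rose. Fitm2, an endoplasmic reticulum protein needed to form droplets, read 92.7 to 249.5 with si-Ctr and 162 to 666 with si-Setdb1, a difference of 1.19 ± 0.15 (SE, n = 5 pairs; adjusted p = 0.0404, limma) that was higher in 5 of 5 pairs. It did not pass without any 1 pair (1.08 to 1.30; adjusted p = 0.0764 to 0.132), without the filter on dim genes (0.177), with probe sets averaged (0.0638) or with each probe set as a feature (0.0791). The list medians were 0.04, 0.09 and 0.06, beside 0.00 over all genes tested.

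None of the brightest genes of those lists passed over the 5 pairs. Cav1, the caveolar coat protein, differed by 0.06 ± 0.22, its partner Cavin1 by 0.03 ± 0.08, the droplet GTPase Rab18 by 0.06 ± 0.09, Hsd17b11 by 0.00 ± 0.11 and the perilipin Plin3 by -0.14 ± 0.11. Of the regulators, Gnas, Prkar1a and Gnai2, which carry the cyclic AMP signal, differed by 0.05 ± 0.07, -0.07 ± 0.09 and 0.02 ± 0.08, and the insulin receptor substrate Irs1 by 0.39 ± 0.10 (adjusted p = 0.101, limma). Of the hydrolases, Lipa, Ddhd2, Pnpla8 and Abhd12 differed by -0.02, 0.13, 0.04 and -0.30, and lipoprotein lipase Lpl by 1.78 ± 0.50 (adjusted p = 0.117, limma). Fabp4, the fatty acid carrier that binds Lipe, differed by 3.55 ± 0.60 and did not pass over the 5 pairs (adjusted p = 0.0570, limma).

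Fabp4 did pass in other comparisons. It rose by 5.34 ± 0.22 in 3T3-L1 at 0 hr (26.9 and 41.5 with si-Ctr, 1346 and 1199.8 with si-Setdb1; adjusted p = 0.0289, limma, n = 2 a group), where 0.0161% of all genes passed, and by 4.16 ± 0.43 after dexamethasone (SE, n = 4 pairs; adjusted p = 0.0389, limma), where 0.766% did. In 3T3-L1 at 0 hr it did not pass when either si-Ctr array was left out (adjusted p = 0.167 without A and 0.195 without B), without the filter (0.466), with the deposited scaling (0.0753), with probe sets averaged (3.68; 0.307), with each probe set as a feature (0.201) or with the experiment as a block (0.0862). After dexamethasone it did not pass without the filter (0.173), with probe sets averaged (0.0510), with each probe set as a feature (0.0728) or without the 3T3-L1 si-Ctr, 10T1/2 si-Ctr or 10T1/2 si-Setdb1 pair (0.149, 0.109 and 0.160). No other gene of the 3 lists passed in either. Between the lines at 0 hr, where 17.6% of all genes passed, 4 of 13 coat genes passed, with seipin (Bscl2) higher in 10T1/2 by 2.31 ± 0.43 and Cav1, Rab18 and Aup1 lower by differences of -2.62, -0.76 and -0.61. Among the regulators, G0s2, the inhibitor of Pnpla2 (4.56 ± 1.05), and Irs1 (1.02 ± 0.26) were higher. In 3T3-L1, G0s2 read 0.7 and 4 with si-Ctr, under the filter level, and 23.2 and 33.1 with si-Setdb1. On the 10T1/2 arrays at 0 hr the order was reversed (309.8 for the control, 120.8 for si-Setdb1), so the size of the G0s2 difference between lines is uncertain. The reversal was not seen in 10T1/2 at 48 hr, where the si-Setdb1 array was the higher, at 680.1 against 233.1. Of the 14 hydrolases, Faah (2.12), Pla2g4a (1.49) and Abhd6 (1.48) were higher and Lpl was lower (-5.66 ± 0.44), from 2562 to 5553 in 3T3-L1 to 29.5 and 203 in 10T1/2.

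The fat cell genes Adipoq, Pparg and Cebpa were measured on the same arrays. Over the 5 pairs Cebpa rose by 2.43 ± 0.28 (adjusted p = 0.0383, limma), and Pparg differed by 1.18 ± 0.19 and Adipoq by 5.50 ± 0.88 (adjusted p = 0.0514 and 0.0510). Their part in the values of the droplet genes was not tested.

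The members differed in how they varied over the 12 arrays, which share lines, times and siRNAs, so the following correlations are descriptions. Plaat3 and Abhd15 had a Pearson r of 0.943 with each other, Plin2 and Plaat3 0.908, and Mgll and Pnpla2 0.333. Of the 12402 genes, those most like Abhd15 were Ppargc1b (r = 0.976), Fitm2 (0.974) and Gnb5 (0.973), and those most like Plaat3 were Tnip1 (0.976), Ldhb (0.949) and Exoc8 (0.943). Plin4 was most like Per1 (0.975), Ralgapa2 (0.960) and Sesn1 (0.951). Pnpla2 was most like Hif3a (0.973), Rab5if (0.955) and Echs1 (0.955), and Plin2 most like Atp5d (0.986), Uqcr11 (0.973) and Bcap31 (0.971). Adig was nearest to Mfsd12 (0.925), Dgat1 (0.918) and Slc2a4 (0.914), and Mgll to Rnf135 (0.947), Ddi2 (0.946) and Mcts1 (0.942).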

How the data were processed

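Biotin-labelled cRNA was hybridised, and the authors deposited linear intensity values, 1 for each probe set on each array, per the file headers. The values have a trimmed mean of 100 on each array (2% trimmed at each end). The sources used here do not name the software, its background correction or any detection calls, and 11 deposited log ratio columns were not used. From 45101 probe sets, 64 controls were left out, and each gene was read from its brightest probe set with a single symbol (20670 genes), updated through RefSeq. Intensities were taken as log2(intensity + 0.8) and quantile normalised. The dimmest genes, those whose mean fell below the 40th percentile (signal 7.69), were dropped, so 12402 were tested. Log2 differences that start from dim signals are imprecise and depend on the amount added before taking logs. For Adig over the 5 pairs the difference was 2.07 with 0.8 and 1.01 with 16.

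The tests used limma 3.58.1 under R 4.3.3 (lmFit, then eBayes without trend), with Benjamini-Hochberg adjustment over those 12402 genes and a threshold of 0.05. Scripts were tested on simulated data. The siRNA comparison over 5 pairs and the dexamethasone comparison had the pair as a block (the comparison in 3T3-L1 at 0 hr, 2 arrays against 2, had none), since experiment letters in the labels mark shared experiments (A against B differences correlated between si-Ctr and si-Setdb1 with r = 0.427). The 10T1/2 arrays carry no letter and were paired by line and time. The line comparison had siRNA as a covariate, and the lone arrays had the experiment as a block and were assumed to vary like the others. Pairs share experiments, comparisons share si-Ctr arrays and no label states separate cultures, so the p-values reflect variation among arrays that could be technical. The number of arrays limits precision.

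The genes, lists and tests were chosen with earlier results of these data known. Every member is named, with each listed gene that passed (1 result is not reported here), the 5 brightest of each list and, for likeness, the 3 genes with the highest r. Alternatives were the deposited scaling, median centring, other pseudocounts and filters, averaged probe sets, a variance trend, the block and leaving out arrays, and, added after seeing the data, each probe set as a feature.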

Additional observations from a re-analysis of the deposited data

Results flagged for a closer look

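Of the si-Setdb1 minus si-Ctr differences of the 7 tested genes over the 5 pairs, 1 stood far from the others. Mgll differed by 1.95 in 10T1/2 at 48 hr, where the signals were 71.3 and 295.6, against -0.16 to 0.43 in the other 4 pairs. A gap of this size is seen by chance in about 1 of 20 groups, and 7 were examined. Of its other probe sets, 2 gave 1.86 and 1.88 in that pair.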

How the results depend on the processing

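Over the 5 pairs, 2 members and 136 genes passed. The counts were 3 and 251 with a pseudocount of 5, 3 and 606 with 16, 2 and 843 with the stricter filter (60th percentile), 0 and 0 without a filter, 0 and 2 with probe sets averaged, 4 and 880 with a variance trend, and 1 and 8 with each probe set as a feature. The 2 members with the stricter filter were Plaat3 and Plin2, since Abhd15 fell under that filter and was not tested there. The fit with no replicate block called 1 member. Leaving out each pair in turn gave 0 to 0 members and 0 to 0 genes. For dexamethasone (1 member, 95 genes) the counts were 170 genes with a pseudocount of 5, 3 members and 375 genes with 16, 0 and 0 without a filter, 3 and 462 with the stricter filter, 0 and 19 with probe sets averaged, 4 and 574 with a trend, 0 and 27 with each probe set, and 0 to 0 members and 1 to 14 genes without a pair. For the lines at 0 hr (1 member, 2184 genes), members were 2 with the deposited scaling (the second is Adig, dim on these arrays), 3 with a pseudocount of 16, 2 with the stricter filter, 0 with probe sets averaged and 3 with a trend. The 2 with the stricter filter were Pnpla2 and Plin2, since Mgll fell under it and was not tested there. Genes past the threshold between the lines were 811 without a filter, 907 without experiment B and 1228 to 1658 without 1 array. In 3T3-L1 at 0 hr (2 genes) the counts were 1 with the deposited scaling, 38 with array medians subtracted, 5 with a pseudocount of 16, 0 without a filter, 1 with probe sets averaged, 4 with a trend, 1 with experiment as a replicate block, 0 with each probe set and 0 to 2 without 1 array. By line 25 genes passed with a pseudocount of 16, 6 with the stricter filter and 18 with a trend. For the si-Mbd1 array 46 passed with the stricter filter and 112 with a trend, and for the array labelled si-Mcaf1 52 with a pseudocount of 16, 250 with the stricter filter and 352 with a trend. No member passed in these last 4 comparisons or by time under any setting run. The causes were not tested, beyond the fewer or more genes and arrays that a setting uses. Plin4 over the 5 pairs changed sign, at 0.037 without the 3T3-L1 36 hr pair (-0.22 to 0.037 without 1 pair). Of the 7 tested members and Fitm2 over the 5 pairs, dropping the pair block changed the call of Abhd15 and no other. Dim signals limit Cidec, Adig and the single-symbol Lipe probe set most, since they lie near or under the filter level on most arrays.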
